A study of Mus musculus with 8 samples.

Results

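The family of miR-130 and miR-301 comprises miR-130a, miR-130b, miR-301a and miR-301b, miRNAs that share a seed, the short stretch near the 5′ end that pairs with target mRNAs. The members were taken by name from a real-time PCR panel, as the mouse assays of those names without passenger-strand assays, giving 4 of 750 miRNA assays. The panel was run on CD34+/CD105- cells sorted by flow cytometry from collagenase-digested renal artery of mice. CD34 marks endothelial and progenitor cells, while endoglin (CD105) is found on endothelial and mesenchymal stromal cells. One group of 4 mice had sham surgery, and the other 4 mice had both renal arteries clamped, followed by reperfusion. The sources used here give no genotype, strain, age or length of ischemia. The question of the comparison is how the miRNAs of these cells differ once the kidney has undergone ischemia and reperfusion.

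As background, a miRNA guides an Argonaute protein to mRNAs that match its seed and lowers their translation or stability, so miRNAs with the same seed share many predicted targets. miR-130a is known in endothelial cells as a pro-angiogenic miRNA that represses the homeobox factors GAX and HOXA5. In the pulmonary circulation the family is known to repress PPARγ, and it has been linked to proliferation of vascular cells, to hypoxia and to matrix stiffening. Only miRNAs were measured here, so no target was read.

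The sequences below show why the members are treated as a family, with bases 2 to 8, the seed, in capitals. They were taken from RefSeq (build GRCm38.p6). A mature sequence matched 3 of the 4 members by name, and the main arm (3p) was taken because the assay names carry no arm.
miR-130a-3p: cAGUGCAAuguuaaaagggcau
miR-130b-3p: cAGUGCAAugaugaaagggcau
miR-301a-3p: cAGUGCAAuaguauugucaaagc
The seed is identical in the 3, and the rest of the sequence divides them. miR-130a-3p and miR-130b-3p are identical at 20 of 22 positions, counted from the 5′ end. miR-301a-3p is identical to miR-130a-3p at 12 of 22 positions and to miR-130b-3p at 11 of 22. For miR-301b the hairpin precursor is shown, with the same 7 bases in capitals where they occur, once, from base 56.
miR-301b hairpin: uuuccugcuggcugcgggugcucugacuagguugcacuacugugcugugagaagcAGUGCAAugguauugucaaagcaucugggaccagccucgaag
Of the 1738 mature mouse miRNAs in that table, 7 carry this seed: miR-130a-3p, miR-130b-3p, miR-301a-3p, miR-130c, miR-721, miR-6341 and miR-6389.

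The members come from 3 places in the genome (GRCm38.p6). The mature miR-130a lies at chr2:84741116-84741137 on the minus strand, and no other gene span in the annotation covers its hairpin. miR-301a lies at chr11:87113054-87113076 on the plus strand, within the span of Ska2, which encodes a kinetochore protein. miR-130b lies at chr16:17124071-17124092 on the minus strand. Its hairpin is 257 bases from that of miR-301b, at chr16:17124400-17124496 on the same strand, and both lie within the span of 2610318N02Rik. The annotation table used gives gene spans only, so exon or intron was not assigned.

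The readout was the threshold cycle (Ct), the PCR cycle at which an assay's signal crosses its threshold, which falls as the amount of RNA rises. Detection meant a Ct below 35, and a well with no Ct was undetermined. Levels are given as minus delta Ct, the reference Ct minus the assay's Ct, on the log2 scale, where a value closer to 0 means more RNA. The number of miRNA assays detected per mouse ranged from 75 to 163 in the sham group and from 82 to 98 after ischemia/reperfusion, with the lowest count in sham mouse 2. The endothelial miRNAs miR-126-3p and miR-126-5p were detected in all 8 mice. The red cell miRNAs miR-451, miR-144 and miR-486 had no Ct in any. The whole-panel test, limma with Benjamini-Hochberg adjustment, ran on the 72 miRNAs detected in at least 3 mice of each group, and called 0 of them at an adjusted p under 0.05 (0% called). At an unadjusted p under 0.05 limma gave 10 of 72, all lower (13.9% called). The exact permutation test per miRNA called 0 after adjustment. With 4 mice per group its smallest unadjusted p is 0.0286, so a call would need many miRNAs at that floor together. Its 0 therefore decides nothing. No family member reached that filter, so the family is described by its wells and its detection.

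All 4 members were detected in sham mice, and miR-130a was the only member detected after ischemia/reperfusion. Below Ct 35, 3 sham mice and 2 ischemia/reperfusion mice had miR-130a (4 mice per group). The counts were 3 and 0 for miR-301a, 2 and 0 for miR-130b, and 1 and 0 for miR-301b. In wells, this was 9 of 16 in sham and 2 of 16 after ischemia/reperfusion, beside 507 of 3000 and 359 of 3000 wells over all miRNA assays. Each member was thus detected in more sham than ischemia/reperfusion mice. So were 107 of the 187 assays detected in at least 1 mouse (57.2% called), and 15 of the 187 went the other way (8.02% called). Detection in sham but in no ischemia/reperfusion mouse, as for 3 of the 4 members, was found for 58 of the 187 (31% called). These counts describe the family beside the panel, in which the same direction prevailed.

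Fisher's exact test on detection, adjusted over the 133 assays detected in 1 to 7 mice, called no member and no other assay. Over all 133 it gave 0 at an adjusted p under 0.05 and 0 at an unadjusted p under 0.05. With 4 mice per group, no member's number of detections allowed an unadjusted p under 0.05 in Fisher's exact test. Its result therefore could not decide a difference for any member. For any assay the smallest unadjusted p it allows is 0.0286. The unadjusted exact p was 0.143 for miR-301a, 0.429 for miR-130b and 1 for both miR-130a and miR-301b, and the adjusted exact p was 1 for each. Without sham mouse 2 the unadjusted Fisher exact p of miR-301a was 0.0286 (3 of 3 against 0 of 4 mice) and its adjusted p was 0.398. Leaving out the sham mouse with no miR-301a widens that difference by construction.

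**Figure D1:**
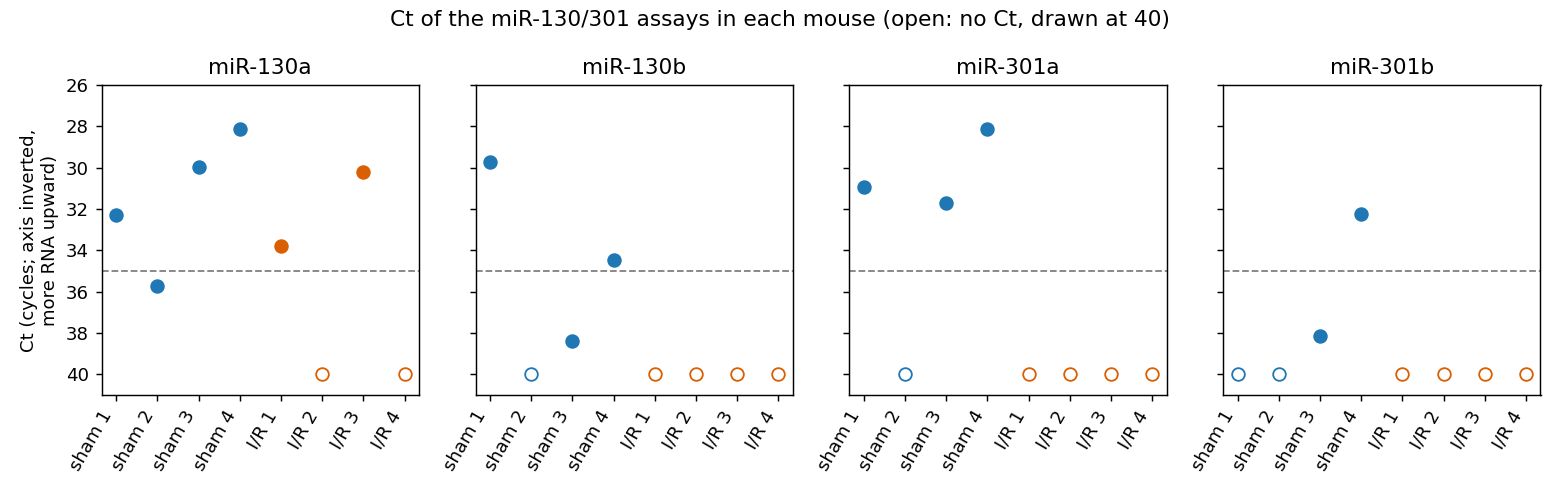
Ct (cycles, axis inverted so that more RNA is higher) of the 4 family assays in each of the 4 sham (blue) and 4 ischemia/reperfusion (I/R, orange) mice; open circles at 40 are wells with no Ct and the dashed line is the detection limit of Ct 35. Every miR-130b, miR-301a and miR-301b well is open after ischemia/reperfusion, while miR-130a has a Ct in I/R mice 1 and 3.

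miR-130a, the pro-angiogenic member, had a Ct in more mice than any other member. In sham mice 1 to 4 its Ct was 32.3, 35.7, 30.0 and 28.1. In ischemia/reperfusion mice 1 and 3 it was 33.8 and 30.2, and mice 2 and 4 had no Ct. Both ischemia/reperfusion values lay inside the range of the sham values. As minus delta Ct, sham mice 1, 3 and 4 were at -11.62, -10.99 and -10.18, and sham mouse 2, over the detection limit, was at -13.28. Ischemia/reperfusion mouse 1 was at -12.76 and mouse 3 at -9.71, the highest miR-130a level of all mice. The groups overlapped, with the ischemia/reperfusion values on either side of the detected sham values.

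Over wells detected below Ct 35, the mean miR-130a level was -10.93 ± 0.72 (SD, n = 3) in sham and -11.23 ± 2.16 (SD, n = 2) after ischemia/reperfusion. The log2 difference of -0.30 did not differ beyond the spread between mice (exact two-sided permutation p = 1; the smallest p that 3 against 2 values allow is 0.2). In a limma fit to the 90 miRNAs detected in at least 2 mice of each group, the difference was -0.30 ± 1.20 (SE, 3 sham and 2 ischemia/reperfusion values; adjusted p = 0.879). With the sham mouse 2 well at Ct 35.7 counted, it turned to 0.29 (exact permutation p = 0.8). It was 0.53 with the mean Ct of all always-detected miRNAs as the reference and -1.88 without normalization. With wells not detected set to Ct 35 it was -0.77 (limma adjusted p = 0.637). The direction of a miR-130a difference was therefore not fixed by these wells.

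The normalization also set how much sham mice differed in miR-130a. Their Ct spread over 7.61 cycles, and their minus delta Ct over 3.11, because the sham mice with a later miR-130a Ct also had a later reference Ct. On the family's card, sham mice 1 to 4 had a reference Ct of 20.7, 22.4, 19.0 and 17.9. The corresponding values after ischemia/reperfusion were 21.0, 22.4, 20.5 and 21.7. Which RNA served as reference is not given in the sources used here.

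For miR-130a, a fold of 123472 stands in the authors' deposited table. Their deposited delta Ct values for ischemia/reperfusion mice 2 and 4 are -22.4 and -21.7, which equal Ct 0 minus the reference, although neither mouse has a Ct. With those 2 wells left out, the fold over all wells with a Ct was 1.22, and the other 3 members have no fold in the authors' deposited table.

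miR-301a, encoded within Ska2, was detected in the same 3 sham mice as miR-130a and in no ischemia/reperfusion mouse. Its Ct was 30.9, 31.7 and 28.1 in sham mice 1, 3 and 4, and sham mouse 2 had no Ct. The corresponding minus delta Ct was -10.30, -12.71 and -10.18, with a mean of -11.06 ± 1.43 (SD, n = 3). These sham levels lay close to those of miR-130a in the same mice. The miR-301a Ct was 1.32 cycles lower than that of miR-130a in sham mouse 1, 1.72 higher in sham mouse 3 and 0.0056 higher in sham mouse 4. Ischemia/reperfusion mice 1 and 3 had a Ct for miR-130a and none for miR-301a. Different assays can differ in PCR efficiency, so these Ct gaps are not ratios of RNA amounts.

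With wells not detected set to Ct 35, the sham mice averaged -11.44 ± 1.38 for miR-301a and the ischemia/reperfusion mice -13.60 ± 0.80 (SD, n = 4 each). By limma over 114 miRNAs this log2 difference of -2.17 ± 0.84 (SE) had an unadjusted p of 0.0307 and an adjusted p of 0.245, and the exact permutation p was 0.0571. With undetermined wells at Ct 40 the difference was -5.92 ± 1.65 (SE; limma adjusted p = 0.0982). In both settings miR-301a entered through its sham values alone, and every ischemia/reperfusion value is the reference Ct minus the chosen limit. The difference is thus set by the limit chosen, and its lower sign was largely fixed by how the assay entered.

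miR-130b and miR-301b, the clustered pair, were detected in few mice. miR-130b had a Ct of 29.7 in sham mouse 1, 38.4 in sham mouse 3 and 34.5 in sham mouse 4, and none in sham mouse 2. Its minus delta Ct was -9.06, -19.37 and -16.53 in those mice, a spread of 10.3 on the log2 scale. Sham mouse 1 thus held the highest miR-130b level, far from the other miR-130b values. miR-301b had a Ct of 38.1 in sham mouse 3 and 32.2 in sham mouse 4, and none in sham mice 1 and 2. Its minus delta Ct was -19.15 and -14.30. In the 2 mice with a Ct for both, sham mice 3 and 4, the miR-301b Ct was lower by 0.21 and 2.23 cycles. Neither had a Ct in sham mouse 2 or after ischemia/reperfusion, and sham mouse 1 had a Ct for miR-130b alone. How many wells stand behind a value is not stated, so a single odd well in sham mouse 1 cannot be told apart from a high level in that mouse.

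By mean Ct over sham mice in which an assay was detected, miR-130a (30.1) and miR-301a (30.3) lay near the middle of the 182 assays detected in sham, with 95 and 99 assays at a lower Ct. miR-130b (32.1; sham mice 1 and 4) and miR-301b (32.2; sham mouse 4 alone) rest on different mice, so their mean Ct give no order between them. Over the same wells their minus delta Ct was -12.79 and -14.30. The means of miR-130a and miR-301a rest on the same sham mice 1, 3 and 4. In these mice the miR-301a Ct minus the miR-130a Ct was -1.32, 1.72 and 0.0056, with no common direction.

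**Figure D2:**
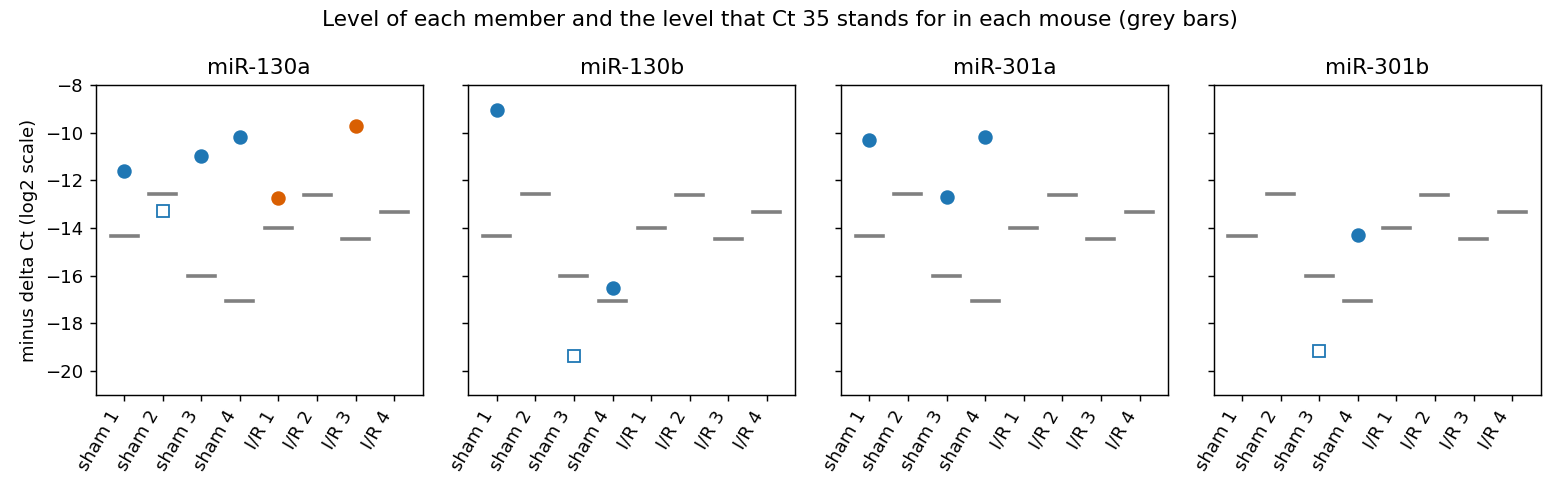
Minus delta Ct (log2 scale, more RNA upward) of each member in the 4 sham (blue) and 4 ischemia/reperfusion (I/R, orange) mice; filled circles are wells below Ct 35, open squares are wells with a later Ct, and grey bars are the level that Ct 35 stands for in that mouse. The bars lie between -17.06 and -12.56 in sham and between -14.48 and -12.63 in I/R mice, and the sham miR-130a and miR-301a points below Ct 35 lie above all of the I/R bars except for the miR-301a point of sham mouse 3.

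The same Ct limit stood for different levels in different mice, because it lies at a different distance from each mouse's reference. Ct 35 corresponded to a minus delta Ct of -17.06 in sham mouse 4, -16.00 in sham mouse 3, -14.35 in sham mouse 1 and -12.56 in sham mouse 2. In ischemia/reperfusion mice 1 to 4 it corresponded to -13.98, -12.63, -14.48 and -13.33. Of the 9 sham wells in which a member was detected, 6 had a level above the limit of all 4 ischemia/reperfusion mice. These were miR-130a in sham mice 1, 3 and 4, miR-301a in sham mice 1 and 4, and miR-130b in sham mouse 1. The miR-301a level of sham mouse 3 was above the limit of 3 of them. miR-130b in sham mouse 4 and miR-301b in sham mouse 4 were above the limit of 0 and 1 of them, so levels of that size were not detectable below Ct 35 in most ischemia/reperfusion mice.

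Read back through the reference, the mean sham level of miR-301a would stand at Ct 32.1, 33.4, 31.6 and 32.7 in ischemia/reperfusion mice 1 to 4. That of miR-130a would stand at Ct 31.9, 33.3, 31.5 and 32.6. The sham mean of miR-301a would stand at Ct 33.5 in sham mouse 2, which had no miR-301a Ct either. For miR-301b the single detected sham level would stand at Ct 35.3, 36.7, 34.8 and 36.0 in ischemia/reperfusion mice 1 to 4, at or beyond the limit in 3 of 4.

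Detection of the family moved with the number of assays detected in a mouse. Sham mouse 4 had 163 assays and 4 members, sham mouse 3 had 142 and 2, and sham mouse 1 had 127 and 3. Ischemia/reperfusion mouse 1 had 98 assays and 1 member, and mouse 3 had 91 and 1. Ischemia/reperfusion mice 4 and 2, with 88 and 82 assays, and sham mouse 2, with 75, had no member. The 5 mice with at least 1 member were thus the 5 mice with the most assays detected, and the part of overall detection in the family's detection was not tested. Fewer cells and less RNA per cell cannot be told apart in these samples.

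**Figure D3:**
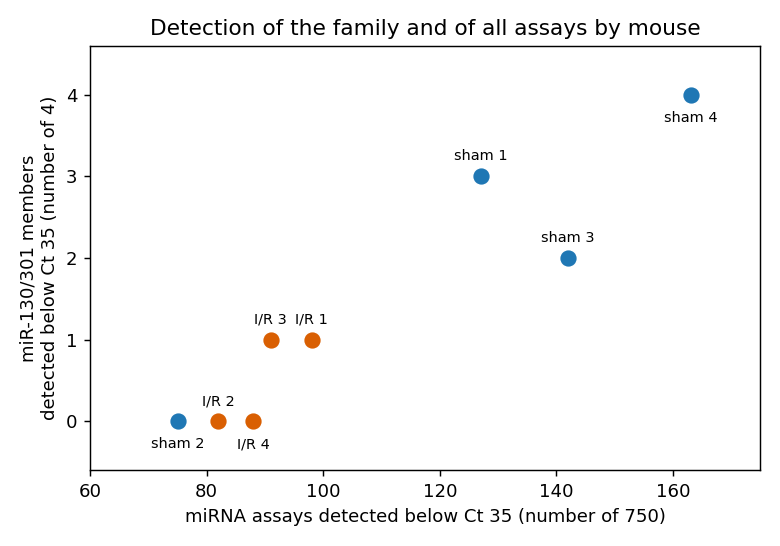
Number of family members (of 4, y axis) against number of miRNA assays (of 750, x axis) detected below Ct 35 in each mouse, sham in blue and ischemia/reperfusion (I/R) in orange. The 3 mice with 75, 82 and 88 assays have 0 members, and the mouse with 163 has all 4.

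Other assays shared the detection patterns of the members. The pattern of miR-301a, sham mice 1, 3 and 4 only, was that of 8 other assays, of which miR-28, miR-376c and miR-30e had the lowest mean Ct (27.1, 28.3 and 31.1). Detection in 3 or 4 sham and 0 ischemia/reperfusion mice was found for 9 of all 750 assays, miR-301a included (1.2% called). The miR-130b pattern was shared by rno-miR-196c and hsa-miR-671-5p. The miR-301b pattern, sham mouse 4 only, was shared by 20 assays, among them miR-17, miR-34a and miR-192. The miR-130a pattern was shared by 0 other assays. Over the 6 mice with a miR-130a Ct, 75 assays had a Ct in all of them, and the minus delta Ct of miR-30e-3p followed miR-130a most closely (Pearson r = 0.93 across 6 mice). It was followed by miR-1894-3p (r = 0.79), miR-1897-5p (r = 0.68), miR-328 (r = 0.60) and miR-411 (r = 0.52), beside a median r of -0.26 over the 75. The reference Ct and the number of assays detected differed between these mice, so r is a description of these wells.

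Of miRNAs related by sequence, miR-721 carries the same seed (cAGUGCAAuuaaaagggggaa) and had no Ct in any of the 8 mice. miR-454 was not analysed here. The passenger arm of miR-130b had no Ct in any mouse either. The group of miR-148a, miR-148b and miR-152 has a seed shifted by a single base, so that 6 bases of the family seed start at base 3. Bases 2 to 8 are in capitals.
miR-148a-3p: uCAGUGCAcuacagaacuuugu
miR-148b-3p: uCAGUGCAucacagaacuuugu
miR-152-3p: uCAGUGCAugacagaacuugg
These did not show the detection pattern of the family. miR-152, abundant in mesenchymal cells, was detected in all 8 mice. Sham mice 1 to 4 were at a minus delta Ct of -4.73, -6.43, -6.33 and -5.38. The ischemia/reperfusion mice were at -5.72, -6.56, -5.57 and -11.71, in the order of their numbers. Only ischemia/reperfusion mouse 4 was clearly lower, and the other values of the groups overlapped. The log2 difference was -1.67 ± 1.33 (SE, n = 4 per group; limma adjusted p = 0.552), and -0.23 without ischemia/reperfusion mouse 4. miR-148a was detected in sham mouse 1 and in ischemia/reperfusion mice 2 and 4, at Ct 29.0, 31.6 and 33.5, of which the last 2 mice had no Ct for any family member. miR-148b had no Ct in any mouse.

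The miRNAs known to act downstream of the family through PPARγ in lung vessels are miR-204 and the miR-322 (miR-424) and miR-503 cluster. The miR-204 Ct was 29.3, 29.8 and 27.2 in sham mice 1, 3 and 4, and 27.2 and 31.6 in ischemia/reperfusion mice 2 and 3. Its minus delta Ct was -8.65, -10.76 and -9.28 in those sham mice and -4.83 and -11.03 in those ischemia/reperfusion mice, so the groups overlapped. One of the miR-322 assays was detected only in sham mouse 3, close to the limit, and miR-503 had no Ct. None of these reached the filter of the whole-panel test.

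The wider lists were counted on the same scale. Of 19 endothelial and angiogenic miRNAs, 16 were detected in at least 1 mouse, and 7 of 9 tested members had lower and 2 higher mean values after ischemia/reperfusion, with 0 passing the limma threshold. Their median log2 difference was -0.93, beside -0.80 over all 72 tested, of which 49 were lower and 23 higher. The scaling moved both together: with the always-detected miRNAs as reference the medians were -0.28 and -0.31, with 41 of all 72 lower, and without normalization -2.33 and -1.93, with 65 of all 72 lower. The members with the smallest p were miR-218 (-1.89 ± 0.66) and miR-222 (-2.12 ± 0.74; SE, n = 4 per group, limma adjusted p = 0.228 for both). Of 7 hypoxia-responsive miRNAs with an assay, 4 were detected and 3 were tested, with a median of -1.11 and 0 passing. Of those not detected, miR-210 and miR-107 had no Ct in any mouse, and miR-103 had one only in sham mouse 4 (Ct 35.1). miR-21 was at -2.99 ± 1.33 (SE, n = 3 per group; limma adjusted p = 0.362) and miR-26a at -1.11 ± 0.65 (SE, n = 4 per group; limma adjusted p = 0.496).

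Markers of other cell types that the gate could hold are given beside the family's detection. Of 6 fibroblast and mesenchymal markers, 5 were detected, with 2 to 5 detected per sham mouse and 3 to 5 per ischemia/reperfusion mouse. Their summed level, the sum of 2 to the power of minus delta Ct times 1000, was 11.9 to 48.8 in sham and 0.906 to 23.2 after ischemia/reperfusion. The mouse miR-214 assay (-3.95 ± 1.17; SE, 3 and 4 values) and miR-199a-3p (-2.65 ± 0.92; SE, n = 4 per group) had a limma adjusted p of 0.228. With wells not detected set to Ct 35 or to Ct 40, the mouse miR-214 assay was at -2.54 or -1.29. A second assay, designed for human miR-214 and described after its values were seen, was at -0.86 ± 0.87 (SE, n = 4 per group; limma adjusted p = 0.605). Without sham mouse 2, miR-199a-3p was at -3.57 (limma adjusted p = 0.0130). That mouse held the lowest sham level, -11.53, so leaving it out widens the difference by construction. With any other mouse left out, the limma adjusted p was 0.214 to 0.612. Both smooth muscle markers were detected, 1 to 2 per sham mouse and 1 per ischemia/reperfusion mouse, with a summed level of 0.309 to 2.89 and 0.159 to 0.684. miR-145 was at -2.09 ± 0.84 (SE, n = 4 per group; limma adjusted p = 0.278), and the mouse miR-143 assay had a Ct in 2 sham mice alone. A human miR-143 assay, also described after its values were seen, had a Ct in all 8 mice, below Ct 35 in 2 sham and 1 ischemia/reperfusion mice. The list of 16 markers of epithelium and kidney tubule had 10 detected members, 3 to 10 per sham and 4 to 6 per ischemia/reperfusion mouse. Their summed level was 212 to 536 in sham and 109 to 463 after ischemia/reperfusion. In sham mouse 1 most of it came from miR-30b and miR-30c (minus delta Ct of -2.25 and -2.19), and in sham mouse 3 from miR-194. Each list's sum is set largely by its most abundant members, so sums of different lists do not compare amounts of cell types. The epithelial miR-200a, miR-200b, miR-200c, miR-141, miR-429 and miR-205 had no Ct in any mouse. Other members of the epithelium and tubule list had one. The miR-203 Ct was 26.9, 27.6 and 26.2 in sham mice 1, 3 and 4. It was 26.5 and 30.0 in ischemia/reperfusion mice 2 and 3. The tubule-enriched miR-194 had a Ct of 20.5 in sham mouse 3 and 23.7 in sham mouse 4, and miR-192 a Ct of 29.8 in sham mouse 4, with none elsewhere. miR-30b was at -0.79 ± 0.68 and miR-30c at -0.24 ± 0.57 (SE, n = 4 per group), the latter turning to 0.42 with the always-detected miRNAs as reference. Of 8 leukocyte markers 7 were detected, with a summed level of 7.33 to 33.2 in sham and 4.85 to 58.7 after ischemia/reperfusion. miR-150 was at -1.62 ± 2.00 (SE, n = 4 per group), from -3.03 without ischemia/reperfusion mouse 2 to -0.18 without ischemia/reperfusion mouse 4. The mouse miR-223 assay was at 0.63 ± 1.00 (SE, n = 4 per group), from 0.013 without ischemia/reperfusion mouse 2 to 1.39 without ischemia/reperfusion mouse 3, and turned to -0.76 without normalization. A human miR-223 assay, also described after its values were seen, was at 1.15 ± 1.13 (SE, n = 4 per group; limma adjusted p = 0.605). The endothelial miR-126-3p was at -1.59 ± 0.57 and miR-126-5p at 0.11 ± 0.60 (SE, n = 4 per group; limma adjusted p = 0.228 and 0.892). Their summed level was 37.7 to 113 in sham and 18.1 to 38.0 after ischemia/reperfusion. With the always-detected miRNAs as reference, miR-126-3p was at -0.93 and miR-126-5p at 0.77. Without normalization they were at -2.98 and -1.28. The part of these markers in the family's detection was not tested.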

How the data were processed

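Real-time PCR Ct values of 8 samples, 4 per group, were used as deposited. RNA of the sorted cells came from a mirVana kit and was read on a 7900HT instrument, per the labels' protocols. The delta Ct values (log2 scale) deposited by the authors differ from Ct by a constant for each sample and card, to within 7.11e-15 cycles. The authors' fold is a ratio, per the file headers, of 2 raised to the sham minus the experimental mean delta Ct. In 13 wells without a Ct the deposited delta Ct came from Ct 0, and these wells were treated as missing.

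Detection was set at Ct below 35, repeated wells were averaged per assay, and the 7 controls were left out of the tests. miRNAs detected in at least 3 mice of each group were compared with limma 3.58.1 (lmFit, eBayes; R 4.3.3), which was tested on simulated data. Tests were two-sided, with p adjusted by Benjamini-Hochberg (threshold 0.05). Single values were compared with exact permutation tests and detection with Fisher's exact test (SciPy 1.17.1). Without the number of wells behind a value, precision was judged only by the spread of the mice, which the labels number separately.

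The members and lists were chosen with earlier results of these data known. The rule named all 4 members, the related and PPARγ-linked miRNAs, the 2 tested miRNAs of each other list with the smallest p, and the 5 assays most correlated with a member detected in at least 6 mice. For a member detected in fewer mice it named the 3 assays of the same detection pattern with the lowest mean Ct. miR-130a reached 6 mice only with any Ct counted, so both parts are given for it. Alternatives were other detection limits, references, filters and treatments of wells not detected, an unmoderated fit, an exact test, a block by mouse number and leaving out each mouse. A looser filter with any Ct counted was chosen after seeing the data.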

Additional observations from a re-analysis of the deposited data

Results flagged for a closer look

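In 31 groups of 4 values examined, 3 held a value farther from its nearest neighbour, relative to the group's range, than a 95% critical ratio of 0.829 allows, and chance flags about 1 in 20. Among ischemia/reperfusion mice, the miR-152 level of mouse 4 was -11.71, with a ratio of 0.840. Among sham mice, the miR-199a-3p level of mouse 2 was -11.53 (ratio 0.934) and the highest miR-30c level, of mouse 1, was -2.19 (ratio 0.885). The family members had fewer than 4 values below Ct 35 in each group and were not examined in this way.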

How the results depend on the processing

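The miR-130a log2 difference of -0.30 turned to 0.29 with any Ct counted as detected, 0.88 with a limit of Ct 32 (3 wells, no test), 0.53 with the mean Ct of all always-detected miRNAs as the reference and 0.073 with mouse number as a replicate block. It was -0.77 and -3.09 with wells not detected at Ct 35 and undetermined wells at Ct 40, and -1.88 without normalization. When each mouse was left out it ranged from -1.83 to 1.22, at 0.073 without sham mouse 4 and 1.22 without ischemia/reperfusion mouse 1. The exact permutation p lay between 0.286 and 1 where a test was possible, and the cause of the turns was not tested beyond the few wells each value rests on. The other members have no difference in the main setting because no ischemia/reperfusion mouse detected them.

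The excess of sham over ischemia/reperfusion mice with detection, when each mouse was left out, ranged from 0 to 2 for miR-130a, 1 to 2 for miR-130b, 2 to 3 for miR-301a and 0 to 1 for miR-301b. The excess was 0 for miR-130a without sham mouse 1, 3 or 4, the sham mice that detected it, a change fixed by the counts. The sham group is then the smaller, so an excess of 0 is not an equal share. With a limit of Ct 32, miR-301b had 0 detected wells in either group. The whole-panel limma count of 0 became 1 (hsa-miR-421) with any Ct counted, with wells not detected at Ct 35, with undetermined wells at Ct 40, and with any Ct in at least 2 mice of each group. That assay was detected below Ct 35 in 4 sham mice and 1 ischemia/reperfusion mouse, and its other ischemia/reperfusion wells had a later Ct. In the Ct 35 and Ct 40 settings it entered through its sham values alone. These settings reuse the same wells, so their calls are not separate results. Leaving out each mouse gave 0 to 1 calls, the latter (miR-199a-3p, limma adjusted p = 0.0130) without sham mouse 2. That mouse held the lowest sham miR-199a-3p level, so this call follows from leaving out the value that overlapped the other group. The replicate block gave 0 calls. Same-numbered mice did not deviate together (r of -0.38, -0.15, 0.020 and -0.25 over 54 miRNAs). The labels do not say whether they share more than a number, and these r cannot exclude it.

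Of the listed miRNAs, miR-126-5p turned to -0.57 against snoRNA202, -1.28 without normalization, -0.022 without sham mouse 3, -0.035 without ischemia/reperfusion mouse 2 and -0.15 without ischemia/reperfusion mouse 4. The mouse miR-223 assay turned to -0.054 against snoRNA202 and -0.76 without normalization. miR-30c turned to 0.42 with the mean Ct of all always-detected miRNAs as the reference and 0.086 without sham mouse 1. When each mouse was left out, miR-126-5p ranged from -0.15 to 0.51 and miR-30c from -0.43 to 0.086. The number of mice and the late Ct of the members limit what can be told apart.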
